A study of Mus musculus domesticus and Mus musculus domesticus x Mus musculus castaneus and Mus musculus castaneus with 27 samples.

Results

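The retinoic acid genes described here are 9 of the 27071 genes in the count table, chosen by symbol for their known roles in the pathway. They cover uptake of the precursor (Stra6), synthesis (Aldh1a2), transport in the cytosol (Crabp1, Crabp2), the receptors (Rara, Rarb, Rarg) and degradation (Cyp26a1, Cyp26b1). All 9 were matched to 1 identifier each and all 9 passed the filter on low counts in every comparison.

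Retinoic acid is made from vitamin A (retinol) by oxidation to retinaldehyde and then to the acid. It binds nuclear receptors that sit on DNA in pairs with the RXR receptors, and it is cleared by cytochrome P450 enzymes of the CYP26 family. In the embryo it comes from the mesoderm beside the neural tube and helps to give hindbrain and spinal cord cells, motor neurons among them, their position along the body axis. It is also a common ingredient in protocols that turn stem cells into spinal motor neurons. The labels used here do not give the differentiation protocol, so whether retinoic acid was added is not stated.

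RNA sequencing counts were analysed for 14 libraries of motor neurons (MN) derived from mouse stem cells and 6 of undifferentiated pluripotent stem cells (PSC). The MN groups were CAST/EiJ (CAST, 1 library), the hybrids 129CAS (1 library) and CAS129 (3 libraries), 129S6/SvEv (129, 2 libraries) and C57BL/6 (BL6, 7 libraries). The PSC groups were CAS129, CAST and BL6, with 2 libraries each. CAS129 and 129CAS are labelled as first-generation crosses of the subspecies Mmd and Mmc, and the order of parents behind the 2 names is not spelled out. No label says whether libraries of a group came from separate cultures or lines, so p-values measure the spread between libraries, which may be technical. Library totals were 5612575 to 44572794 counts in MN and 4497912 to 13620056 counts in PSC. The deepest were the 129 MN libraries (44572794 and 41751493 counts), followed by the 129CAS MN library (25686979 counts). All other MN libraries held 10364807 counts or fewer. Effects of this difference in sequencing cannot be told apart from those of the 129 and 129CAS genotypes. RNA of MN and of PSC was extracted with different kits, whose effects cannot be told apart from those of the cell type.

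The labels fitted the markers only in part. Against PSC, in the 17 libraries of the genotypes with both cell types, all 10 motor neuron markers were higher in MN and all 9 measured stem cell markers were lower. Within CAS129 alone, 8 motor neuron markers were higher in MN, and of the stem cell markers 8 were lower and 1 higher. Within CAST and within BL6, 9 motor neuron markers were higher and all 9 stem cell markers were lower. CAS129 MN still held 382 to 1052 CPM (counts-per-million units, scaled as described under processing) of summed stem cell markers, against 7.96 to 25.0 CPM in BL6 MN, and Pou5f1, the defining stem cell factor, stood at 172, 171 and 64.5 CPM there while it was at 0 counts in CAST and 129CAS MN. Mesenchyme and meninges markers such as Fn1 and Acta2 summed to 15295 to 56646 CPM in MN and 1883 to 5199 CPM in PSC, so the MN cultures held much RNA of cells other than neurons. Among PSC, library 1 of each genotype had the higher mesenchyme sum, and with library 2 alone of each genotype the same 7 genes named below were called. Their part in the results below was not tested, and in such mixed samples fewer cells of a type and less RNA per cell cannot be told apart.

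Relative to PSC, MN had more mRNA for the synthetic enzyme, 1 binding protein, 1 receptor and 1 degrading enzyme, and less for the other binding protein and the other receptors. In the fit over the 17 libraries of the genotypes with both cell types, 7 of the 9 genes passed the threshold (edgeR's quasi-likelihood test, Benjamini-Hochberg adjusted p under 0.05). Aldh1a2, Rarb, Cyp26b1 and Crabp2 were higher in MN, and Crabp1, Rarg and Rara were lower. Across all 15596 genes tested, 74.6% passed, 36.1% higher and 38.5% lower, so 7 of 9 is near the background, and the result lies in which genes moved and by how much. The median log2 fold change of the 9 genes was 0.96, against -0.05 over all genes. That median is the value of Cyp26a1, which did not pass and stood at -0.0089 with CAS129 left out. By genotype the median of the 9 genes was 1.86 in CAS129, 0.53 in CAST and 0.17 in BL6, so it does not show a general rise.

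**Figure D1:**
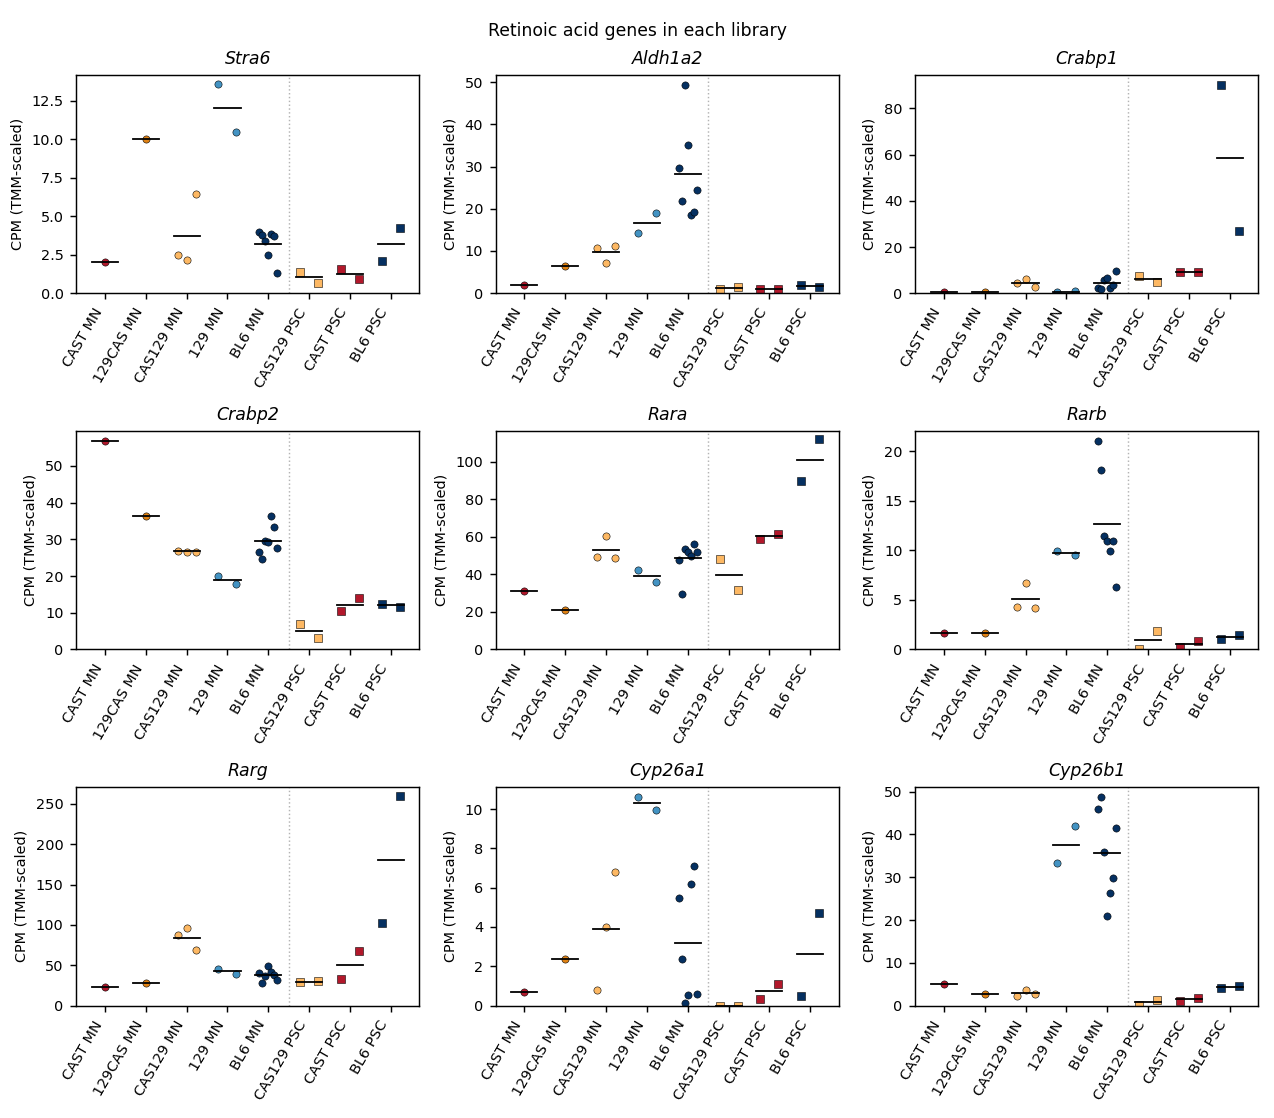
Level of each retinoic acid gene in every library. The vertical axis is TMM-scaled CPM and starts at 0, each point is 1 library (circles MN, squares PSC), and the short line is the group mean. Aldh1a2, Rarb and Cyp26b1 are highest in BL6 and 129 MN, whereas Crabp1, Rara and Rarg are highest in BL6 PSC.

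Stra6, the membrane receptor that takes up retinol from its carrier in the blood, lies on chromosome 9 (58063788 to 58153996, plus strand, GRCm38, ENSMUSG00000032327). It stood at 2.03 CPM in CAST MN, 10.0 CPM in 129CAS MN, 2.45, 2.18 and 6.42 CPM in CAS129 MN, 13.5 and 10.4 CPM in 129 MN, and 1.29 to 4.00 CPM (median 3.73) in the 7 BL6 MN libraries. In PSC it stood at 1.36 and 0.683 CPM in CAS129, 1.58 and 0.896 CPM in CAST, and 2.11 and 4.24 CPM in BL6. The 129 libraries and the 129CAS library, which were also the deepest, were therefore above all other libraries, and BL6 MN overlapped BL6 PSC.

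Across genotypes Stra6 did not pass the test between MN and PSC (log2 fold change 0.42, SE 0.39, adjusted p = 0.34). In 129 MN it was higher than in BL6 MN, by 1.86 on the log2 scale (SE 0.37, adjusted p = 0.0018), with no overlap of libraries. Endoderm and epithelium markers (Cdh1, Krt8 and Krt18 lead the list of 9) summed to 1017 and 1494 CPM in the 129 MN libraries and to 122 to 462 CPM in BL6 MN. They also summed to 1331 CPM in 129CAS MN, and their part in the Stra6 values was not tested. Against CAS129 MN the 129 libraries were also higher, with a log2 fold change of -1.65 for CAS129 over 129 (SE 0.47, adjusted p = 0.0095), a call lost without 129 MN library 1 (-1.43, adjusted p = 0.067). In CAS129, Stra6 was higher in MN than in PSC (log2 1.75, SE 0.64, adjusted p = 0.028). That call was lost without CAS129 MN library 3, CAS129 PSC library 1 or CAS129 PSC library 2 (adjusted p = 0.065 to 0.26), and with RLE scaling (1.49, adjusted p = 0.059) or unscaled library totals (1.47, adjusted p = 0.060).

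Aldh1a2 encodes the retinaldehyde dehydrogenase that makes most retinoic acid in the early embryo and lies on chromosome 9 (71215789 to 71296243, plus strand, ENSMUSG00000013584). Its level was 2.03 CPM in CAST MN, 6.44 CPM in 129CAS MN, 10.8, 7.20 and 11.2 CPM in CAS129 MN, 14.2 and 19.0 CPM in 129 MN, and 18.6 to 49.4 CPM (median 24.5) in BL6 MN. The PSC held 1.06 and 1.54 CPM in CAS129, 0.950 and 1.01 CPM in CAST, and 2.04 and 1.56 CPM in BL6. Every MN library outside CAST was above every PSC library, and the CAST MN library was just below the higher BL6 PSC library.

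Over the 17 libraries Aldh1a2 was 7.32-fold higher in MN than in PSC (log2 2.87, SE 0.42, adjusted p = 8.6e-06). By genotype the log2 fold change was 2.82 in CAS129 (SE 0.48, adjusted p = 0.00011), 0.87 in CAST (SE 0.62, adjusted p = 0.25) and 3.84 in BL6 (SE 0.43, adjusted p = 5.1e-07). The difference between the changes of CAST and BL6 was -2.97 on the log2 scale (SE 0.76, adjusted p = 0.026). This difference rests on 1 CAST MN library, and its call was lost without BL6 PSC library 2, CAST PSC library 1 or CAST PSC library 2 (adjusted p = 0.062 to 0.079).

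Among MN alone, Aldh1a2 was lower in CAST than in BL6 by 14.2-fold (log2 -3.82, SE 0.62, adjusted p = 0.0013) and lower in CAS129 than in BL6 by 2.82-fold (log2 -1.50, SE 0.31, adjusted p = 0.0011). In 129 MN the log2 fold change over BL6 MN was -0.79 (SE 0.33, adjusted p = 0.080), short of the threshold in edgeR's test and past it with DESeq2 (-0.83, adjusted p = 0.045). The order of the MN groups was thus CAST lowest, the hybrids next, then 129 and BL6, and the 129 and BL6 libraries overlapped (19.0 CPM against a BL6 minimum of 18.6 CPM).

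Crabp1 and Crabp2 bind retinoic acid in the cytosol. Crabp2 is known to carry it to the receptors in the nucleus, and Crabp1 has been linked to its turnover. Crabp1 lies on chromosome 9 (54764748 to 54773110, plus strand, ENSMUSG00000032291) and Crabp2 on chromosome 3 (87948666 to 87953376, plus strand, ENSMUSG00000004885).

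Crabp1 stood at 0.338 CPM in CAST MN, 0.337 CPM in 129CAS MN, 4.26, 6.03 and 2.75 CPM in CAS129 MN, 0.304 and 0.916 CPM in 129 MN, and 1.74 to 9.78 CPM (median 3.37) in BL6 MN. The PSC values were 7.42 and 4.78 CPM in CAS129, 9.19 and 8.96 CPM in CAST, and 90.2 and 26.8 CPM in BL6. BL6 PSC were above all other libraries and differed between themselves, whereas the CAS129 MN and CAS129 PSC libraries overlapped.

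Crabp1 was 8.67-fold lower in MN than in PSC (log2 -3.12, SE 0.52, adjusted p = 3.5e-05). The log2 fold change was -0.55 in CAS129 (SE 0.68, adjusted p = 0.53), -4.88 in CAST (SE 1.30, adjusted p = 0.0042) and -3.82 in BL6 (SE 0.49, adjusted p = 2.5e-06). The fall in CAST rests on 3 counts in its MN library. CAS129 differed from BL6 in this change by 3.27 (SE 0.89, adjusted p = 0.018), a call lost without BL6 PSC library 1 (2.20), CAS129 MN library 2, CAS129 PSC library 1 or CAS129 PSC library 2 (adjusted p = 0.053 to 0.12).

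In PSC, Crabp1 was lower in CAS129 than in BL6 (log2 -3.10, SE 0.57, adjusted p = 0.0049) and lower in CAST than in BL6 (log2 -2.53, SE 0.54, adjusted p = 0.022). The CAST call was lost without BL6 PSC library 1 (-1.49), CAST PSC library 1 or CAST PSC library 2 (adjusted p = 0.054 to 0.18). In MN, Crabp1 was lower in 129 than in BL6 (log2 -2.90, SE 0.74, adjusted p = 0.0085) and lower in 129CAS than in CAS129 (log2 -3.72, SE 1.16, adjusted p = 0.029). CAS129 MN were above 129 MN (log2 2.90, SE 0.80, adjusted p = 0.0076). The 2 comparisons with 129 were not called without 129 MN library 1 (-2.32, adjusted p = 0.10, and 2.33, adjusted p = 0.074), and the 129CAS one was not called without CAS129 MN library 1 or CAS129 MN library 2 (adjusted p = 0.051 to 0.062).

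Crabp2 moved the other way. It stood at 56.9 CPM in CAST MN, 36.2 CPM in 129CAS MN, 26.8, 26.6 and 26.6 CPM in CAS129 MN, 19.9 and 17.8 CPM in 129 MN, and 24.6 to 36.2 CPM (median 29.4) in BL6 MN. Among PSC its level was 6.96 and 3.07 CPM in CAS129, 10.5 and 14 CPM in CAST, and 12.4 and 11.5 CPM in BL6. Every MN library was above every PSC library.

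Crabp2 was 2.99-fold higher in MN than in PSC (log2 1.58, SE 0.20, adjusted p = 2.1e-06), with log2 fold changes of 2.34 in CAS129 (SE 0.29, adjusted p = 3.7e-06), 2.03 in CAST (SE 0.32, adjusted p = 4.5e-05) and 1.18 in BL6 (SE 0.23, adjusted p = 0.00024). In MN, CAST was above BL6 (log2 0.91, SE 0.19, adjusted p = 0.0068) and 129 was below BL6 (log2 -0.68, SE 0.16, adjusted p = 0.0044). CAS129 MN were above 129 MN (log2 0.57, SE 0.18, adjusted p = 0.014). The calls against and over 129 were lost without 129 MN library 2 (adjusted p = 0.086 for 129 over BL6 and 0.12 for CAS129 over 129).

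Per kilobase of exonic sequence, which allows levels of different genes to be compared, Crabp2 made up 99.0% of the summed Crabp1 and Crabp2 level in CAST MN, 72.8 to 85.4% in CAS129 MN, 92.2 and 97.5% in 129 MN and 63.1 to 91.1% in BL6 MN. In PSC its share was 28.1 and 36.3% in CAS129, 40.8 and 48.7% in CAST, and 7.71 and 20.7% in BL6. The shares did not overlap between MN and PSC. Averaged over groups, Crabp2 was the most abundant of the 9 genes in MN at 25.5 CPM per kb, and Crabp1 was the most abundant in PSC at 30.6 CPM per kb. The PSC average was carried by BL6 (73.0 CPM per kb, against 7.61 in CAS129 and 11.3 in CAST).

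**Figure D2:**
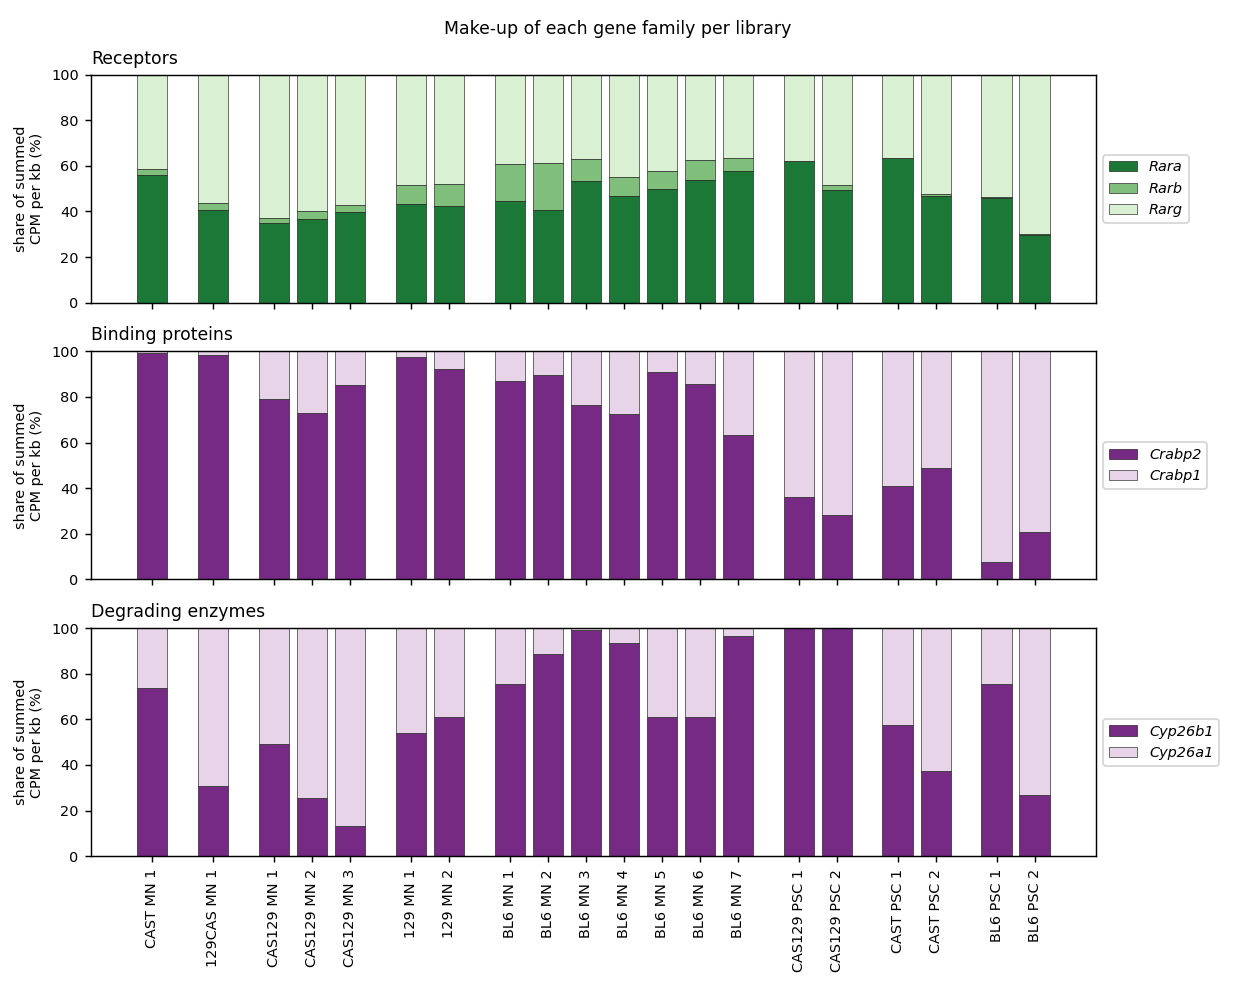
Make-up of the receptors (top), binding proteins (middle) and degrading enzymes (bottom) in each library, as a share in percent of the summed CPM per kb of the family members shown. MN libraries stand left of PSC libraries. Crabp2 takes 63.1% or more in every MN library and 48.7% or less in every PSC library, and Rarb stays under 21% everywhere.

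Rara, the retinoic acid receptor found in most tissues, lies on chromosome 11 (98927818 to 98974942, plus strand, ENSMUSG00000037992). It stood at 30.9 CPM in CAST MN, 21.1 CPM in 129CAS MN, 49.4, 60.6 and 49.0 CPM in CAS129 MN, 42.4 and 35.7 CPM in 129 MN, and 29.7 to 56.4 CPM (median 51.8) in BL6 MN. In PSC the level was 48.1 and 31.6 CPM in CAS129, 58.9 and 61.7 CPM in CAST, and 89.5 and 112 CPM in BL6. BL6 PSC were above all other libraries, and CAS129 was the genotype whose MN were not below its PSC.

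Rara was 1.76-fold lower in MN than in PSC (log2 -0.82, SE 0.21, adjusted p = 0.0018), with a log2 fold change of -1.25 when the hybrid was left out (adjusted p = 2.2e-05). The log2 fold change was 0.34 in CAS129 (SE 0.23, adjusted p = 0.23), -1.14 in CAST (SE 0.32, adjusted p = 0.0061) and -1.18 in BL6 (SE 0.18, adjusted p = 2.3e-05). CAS129 differed from BL6 by 1.53 (SE 0.30, adjusted p = 0.0025), a call lost without CAS129 PSC library 2 (adjusted p = 0.065). In PSC, Rara was lower in CAS129 than in BL6 (log2 -1.21, SE 0.31, adjusted p = 0.023), which was lost without BL6 PSC library 2 or either CAS129 PSC library (adjusted p = 0.050 to 0.15). In MN, 129CAS was below CAS129 (log2 -1.39, SE 0.31, adjusted p = 0.0054).

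Rarg, the receptor known from early embryonic and skeletal tissues, lies on chromosome 15 (102234938 to 102257517, minus strand, ENSMUSG00000001288). It stood at 22.4 CPM in CAST MN, 28.4 CPM in 129CAS MN, 86.9, 96.0 and 68.8 CPM in CAS129 MN, 45.9 and 39.3 CPM in 129 MN, and 27.6 to 48.6 CPM (median 38.2) in BL6 MN. The PSC libraries held 28.9 and 30.2 CPM in CAS129, 33.1 and 67.3 CPM in CAST, and 102 and 259 CPM in BL6. CAS129 MN were above all other MN libraries, and CAS129 PSC were below all other PSC libraries.

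Rarg moved in opposite directions by genotype. It was higher in MN than in PSC in CAS129 (log2 1.42, SE 0.37, adjusted p = 0.0036), but lower in CAST (log2 -1.35, SE 0.50, adjusted p = 0.030) and in BL6 (log2 -2.40, SE 0.27, adjusted p = 6.4e-07). The difference between the changes of CAS129 and BL6 was 3.82 on the log2 scale (SE 0.48, adjusted p = 7.4e-05). The CAS129 call was lost without CAS129 PSC library 1 (adjusted p = 0.055) and the CAST call without CAST PSC library 2 (-0.69, adjusted p = 0.26) or with no filter on low counts (-1.16, adjusted p = 0.054). Over all 17 libraries the log2 fold change was -1.35 (SE 0.43, adjusted p = 0.0095). That value varied with the genotypes and libraries entered, being -0.57 without BL6 PSC library 2 (adjusted p = 0.19), -0.78 when the 3 genotypes counted equally and -2.17 without the hybrid.

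In MN, Rarg was 2.29-fold higher in CAS129 than in BL6 (log2 1.19, SE 0.16, adjusted p = 3.4e-05) and 2.07-fold higher in CAS129 than in 129 (log2 1.05, SE 0.22, adjusted p = 0.0016). It was lower in 129CAS than in CAS129 (log2 -1.62, SE 0.31, adjusted p = 0.0022). Stem cell markers summed to 382 to 1052 CPM in CAS129 MN, 48.2 and 59.5 CPM in 129 MN, 25.0 CPM in 129CAS MN and 7.96 to 25.0 CPM in BL6 MN. In CAS129 PSC they summed to 4004 and 3439 CPM, with Rarg at 28.9 and 30.2 CPM. The part of stem cells in the Rarg values was not tested. In PSC, Rarg was lower in CAS129 than in BL6 (log2 -2.49, SE 0.54, adjusted p = 0.011), a call lost without either CAS129 PSC library (adjusted p = 0.054 to 0.074). CAST PSC had a log2 fold change of -1.73 over BL6 PSC (SE 0.52, adjusted p = 0.074), which passed with DESeq2 (adjusted p = 0.015).

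**Figure D3:**
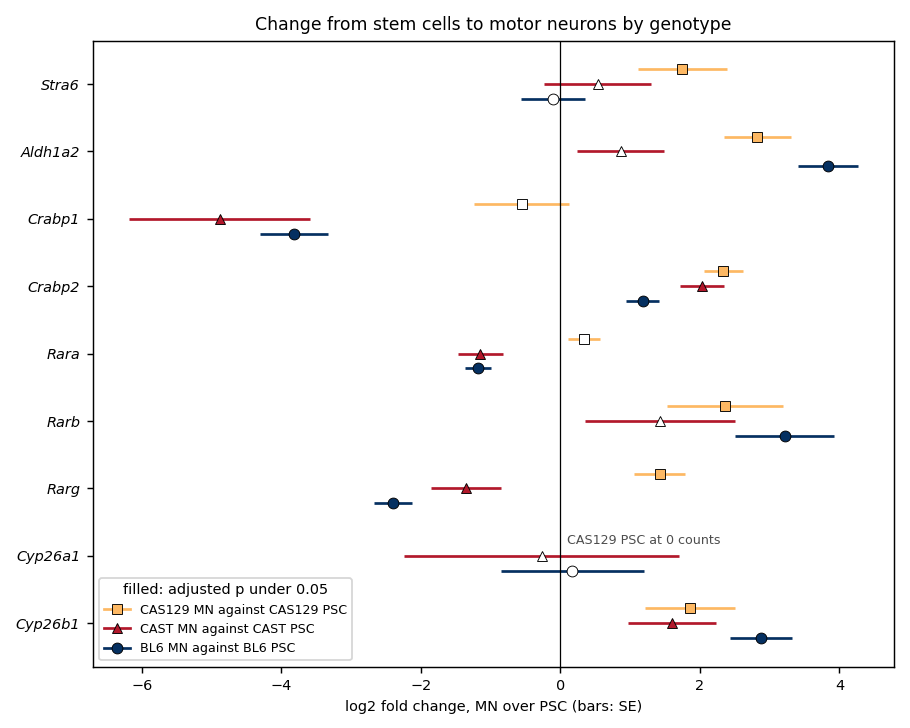
Log2 fold change of each gene, MN over PSC, by genotype (squares CAS129, triangles CAST, circles BL6). Bars are standard errors and filled symbols passed the threshold in edgeR's quasi-likelihood test. Rarg lies at 1.42 in CAS129 against -1.35 in CAST and -2.40 in BL6, and no fold is drawn for Cyp26a1 in CAS129, whose PSC libraries held 0 counts.

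Rarb, a receptor gene that is itself switched on by retinoic acid, lies on chromosome 14 (16430839 to 16819156, minus strand, ENSMUSG00000017491). It shares 1793 exonic bases with Top2b on the opposite strand, and 34.1% of its 50-base stretches also occur in other genes. The sources used here do not say whether counting used strand, so reads of the 2 genes may not be told apart and the Rarb values are uncertain. Rarb stood at 1.69 CPM in CAST MN, 1.69 CPM in 129CAS MN, 4.26, 6.70 and 4.22 CPM in CAS129 MN, 9.90 and 9.53 CPM in 129 MN, and 6.33 to 21.0 CPM (median 11.0) in BL6 MN. PSC had 0 and 1.88 CPM in CAS129, 0.211 and 0.896 CPM in CAST, and 1.02 and 1.49 CPM in BL6. BL6 and 129 MN were above all other libraries except 1 CAS129 MN library (6.70 CPM), and the CAST and 129CAS MN libraries were below the highest PSC library.

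Rarb was 5.66-fold higher in MN than in PSC (log2 2.50, SE 0.55, adjusted p = 0.00049). By genotype the log2 fold change was 1.42 in CAST (SE 1.08, adjusted p = 0.27) and 3.21 in BL6 (SE 0.71, adjusted p = 0.00070). In CAS129 Rarb was higher in MN (adjusted p = 0.024), a call lost without CAS129 MN library 2 or CAS129 PSC library 1 (adjusted p = 0.078 to 0.22), and no fold is given because 1 of the 2 PSC libraries held 0 counts. Within MN it was lower in CAST than in BL6 (log2 -2.94, SE 0.67, adjusted p = 0.012) and lower in CAS129 than in BL6 (log2 -1.29, SE 0.36, adjusted p = 0.0077). Top2b itself was higher in MN than in PSC (log2 2.14, SE 0.37, adjusted p = 5.0e-05). It stood at 224 CPM in CAST MN, 135 CPM in 129CAS MN, 133 to 154 CPM in CAS129 MN, 276 and 315 CPM in 129 MN and 210 to 262 CPM in BL6 MN. In CAS129 MN, where Rarb was lower than in BL6 MN, Top2b was lower too (log2 -0.63, SE 0.10, adjusted p = 9.3e-05), whereas for CAST over BL6 its log2 fold change was -0.08 (SE 0.14, adjusted p = 0.73). The part of Top2b reads in the Rarb values was not tested.

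Within the receptor family, Rara and Rarg together carried most of the level per kb in every library. The share of Rarb was 2.54% in CAST MN, 2.71% in 129CAS MN, 2.48 to 3.38% in CAS129 MN, 8.41 and 9.42% in 129 MN and 5.85 to 20.6% in BL6 MN. It was 0 and 2.43% in CAS129 PSC, 0.188 and 0.565% in CAST PSC, and 0.326 and 0.433% in BL6 PSC. Rarg made up 57.3 to 62.7% of the family in CAS129 MN, 56.5% in 129CAS MN, 41.6% in CAST MN, 48.0 and 48.2% in 129 MN and 36.5 to 44.9% in BL6 MN, so both hybrids were above the inbred strains.

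Cyp26a1 and Cyp26b1 oxidise retinoic acid to inactive products. Cyp26b1 lies on chromosome 6 (84571414 to 84593908, minus strand, ENSMUSG00000063415). It stood at 5.07 CPM in CAST MN, 2.81 CPM in 129CAS MN, 2.13, 3.68 and 2.75 CPM in CAS129 MN, 33.4 and 41.9 CPM in 129 MN, and 21.0 to 48.7 CPM (median 35.9) in BL6 MN. Values in PSC were 0.151 and 1.37 CPM in CAS129, 1.16 and 1.79 CPM in CAST, and 4.22 and 4.69 CPM in BL6. The MN libraries thus fell into separate ranges, 2.13 to 5.07 CPM in CAST and the hybrids and 21.0 to 48.7 CPM in 129 and BL6.

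Among MN, Cyp26b1 differed between the genotypes with and without a CAST genome. Reads of all genotypes were aligned to the same reference, and whether reads of CAST alleles aligned less well was not tested. It was 12.1-fold lower in CAS129 than in BL6 (log2 -3.60, SE 0.33, adjusted p = 1.0e-06), 12.5-fold lower in CAS129 than in 129 (log2 -3.65, SE 0.37, adjusted p = 2.9e-06) and 7.19-fold lower in CAST than in BL6 (log2 -2.85, SE 0.50, adjusted p = 0.0023). The log2 fold change was 0.05 for 129 over BL6 (SE 0.28, adjusted p = 0.92) and -0.08 for 129CAS over CAS129 (SE 0.48, adjusted p = 0.96). The 3 lower calls held under every other scaling, filter and test tried and with each library left out in turn, except that the CAST call rests on 1 CAST library, which cannot be left out.

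Against PSC, Cyp26b1 was 4.76-fold higher in MN (log2 2.25, SE 0.37, adjusted p = 2.7e-05). The log2 fold change was 1.86 in CAS129 (SE 0.64, adjusted p = 0.021), 1.60 in CAST (SE 0.63, adjusted p = 0.039) and 2.88 in BL6 (SE 0.44, adjusted p = 1.8e-05). The CAS129 call was lost without CAS129 MN library 2 or CAS129 PSC library 1 (adjusted p = 0.087 to 0.33, the log2 fold change being 0.78 without the PSC library). The CAST call ended without CAST PSC library 1 (1.27, adjusted p = 0.17) or with a minimum of 5 CPM (1.45, adjusted p = 0.058). The difference between the changes of CAS129 and BL6 did not pass the test (adjusted p = 0.43), nor did that between CAST and BL6 (adjusted p = 0.33).

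Cyp26a1, a classic gene switched on by retinoic acid, lies on chromosome 19 (37697798 to 37701536, plus strand, ENSMUSG00000024987). It stood at 0.676 CPM in CAST MN, 2.36 CPM in 129CAS MN, 0.818, 4.02 and 6.78 CPM in CAS129 MN, 10.6 and 9.97 CPM in 129 MN, and 0.135 to 7.09 CPM (median 2.35) in BL6 MN. In PSC it was at 0 counts in both CAS129 libraries, at 0.317 and 1.12 CPM in CAST, and at 0.509 and 4.69 CPM in BL6. Libraries of 1 group differed widely: the BL6 MN libraries fell between 0.135 and 0.575 CPM (libraries 3, 4 and 7) or between 2.35 and 7.09 CPM (libraries 1, 2, 5 and 6).

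Cyp26a1 did not pass the test between MN and PSC over the 17 libraries (log2 0.96, SE 0.95, adjusted p = 0.37). In CAS129 it was higher in MN (adjusted p = 0.022), at least 16.1-fold when the mean of 3.87 CPM in MN is set against the 0.241 CPM that 3 counts over both PSC libraries would give. That bound was 10.0-fold without CAS129 MN library 3, and 7.56-fold and 8.53-fold without CAS129 PSC library 1 and library 2. In PSC it was lower in CAS129 than in BL6 (adjusted p = 0.048), at least 10.8-fold by the same floor, a bound that fell to 2.11-fold without BL6 PSC library 2 and to 5.08-fold and 5.73-fold without CAS129 PSC library 1 and library 2, and was 19.5-fold without BL6 PSC library 1. This call was lost with RLE or upper-quartile scaling or unscaled totals (adjusted p = 0.052 to 0.065). Both were lost without either CAS129 PSC library, and the MN call also without CAS129 MN library 3 (adjusted p = 0.061 to 0.15 over these fits). In 129 MN the level was above every BL6 MN library, but the test of that difference gave an adjusted p of 0.16.

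Per kb, Cyp26b1 made up 73.5% of the summed Cyp26a1 and Cyp26b1 level in CAST MN, 30.6% in 129CAS MN, 13.1 to 49.1% in CAS129 MN, 53.9 and 60.9% in 129 MN and 61.0 to 99.0% in BL6 MN. Cyp26a1 was therefore the larger of the pair in the MN of both hybrids, and Cyp26b1 in the MN of the 3 inbred strains.

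Counted over the 9 genes, CAS129 MN differed from CAS129 PSC in 7 genes, all higher (54.4% of 15846 genes passed either way and 30.4% were higher). CAST MN differed from CAST PSC in 5 genes, 2 higher and 3 lower (56% of genes passed, 30.3% higher and 25.7% lower), and BL6 MN from BL6 PSC in 7, 4 higher and 3 lower (70.2%, with 36% higher and 34.2% lower). The CAS129 count was 2 without CAS129 PSC library 1. For 4 genes the MN-over-PSC change was more positive in CAS129 than in BL6 (Rarg, Crabp1, Rara and Crabp2; 18.2% of genes passed and 13.7% were more positive). The value for Crabp2 was 1.16 (SE 0.35, adjusted p = 0.028). That call was lost without BL6 PSC library 2, BL6 MN library 3, 4 or 7, CAS129 PSC library 2 or any 1 CAS129 MN library (adjusted p = 0.080 to 0.35), and with RLE, upper-quartile or unscaled totals (0.87 to 1.05) or no filter, and the count was 2 without CAS129 MN library 2 and 1 without CAS129 PSC library 2. In this comparison the median over all genes was 0.26 with TMM scaling and 0.00 with RLE scaling, so each value is to be read against a shift of up to 0.26. Between CAST and BL6 only the change of Aldh1a2 passed, in the negative direction (7.28% of genes passed and 2.73% were more negative). Leaving out BL6 PSC library 1 added Rarg.

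Among PSC, 4 of the 9 genes were lower in CAS129 than in BL6 (Crabp1, Rarg, Rara and Cyp26a1; 25.8% of 13795 genes passed and 17% were lower). That count fell to 1 without CAS129 PSC library 1, and to 2 without BL6 PSC library 2. It was also 2 without CAS129 PSC library 2, where Crabp1 and Cyp26b1 were lower, the second of which did not pass with all 6 libraries. Only Crabp1 was lower in CAST than in BL6 (10.5% passed and 4.81% were lower). Between CAS129 and CAST, 0 genes passed in edgeR's test (14% of all genes did), 0 with DESeq2, and 1 had an unadjusted p under 0.05.

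Among MN, 4 genes differed between CAST and BL6 (Crabp2 higher, and Aldh1a2, Rarb and Cyp26b1 lower; 12.3% of 14837 genes passed, 5.76% higher and 6.58% lower), and 7 passed without BL6 MN library 2, with Crabp1, Rara and Rarg also lower. The same number differed between CAS129 and BL6 (Rarg higher, and Aldh1a2, Rarb and Cyp26b1 lower; 59.5%, with 27% higher and 32.5% lower). These comparisons share the BL6 libraries. Between 129 and BL6 3 genes differed (Stra6 higher, Crabp1 and Crabp2 lower; 36.4%, with 18.3% higher and 18.1% lower). Between CAS129 and 129 it was 5 genes (Rarg, Crabp1 and Crabp2 higher, Stra6 and Cyp26b1 lower; 56.7%, with 25.2% higher and 31.4% lower), or 3 without 129 MN library 1. Between 129CAS and CAS129 it was 3 genes, all lower in 129CAS (Rara, Rarg and Crabp1; 30.3%, with 15.7% lower), with 129CAS a single library whose variance is taken from the other groups.

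The synthetic enzyme Aldh1a2, the receptor Rarb and the degrading enzyme Cyp26b1 were thus low together in the MN libraries that carry a CAST genome. A comparison chosen after the values were seen set the mean of CAST, CAS129 and 129CAS MN (5 libraries) against the mean of 129 and BL6 MN (9 libraries). Cyp26b1 was 10.5-fold lower (log2 -3.40, SE 0.29, edgeR adjusted p = 6.6e-07), Rarb 4.52-fold lower (log2 -2.18, SE 0.35, adjusted p = 0.00027) and Aldh1a2 4.26-fold lower (log2 -2.09, SE 0.30, adjusted p = 0.00011), while Crabp2 was 1.62-fold higher (log2 0.70, SE 0.12, adjusted p = 0.00050). These 4 of the 9 genes compare with 36.3% of 14837 genes that passed, 13.5% higher and 22.7% lower. The libraries of the groups did not overlap for Cyp26b1 (2.13 to 5.07 CPM against 21.0 to 48.7 CPM) or Aldh1a2 (2.03 to 11.2 CPM against 14.2 to 49.4 CPM). They overlapped for Rarb (1.69 to 6.70 CPM against 6.33 to 21.0 CPM) and Crabp2 (26.6 to 56.9 CPM against 17.8 to 36.2 CPM). How many of all genes lack such an overlap was not counted. Between CAS129 and 129 MN alone, neither Aldh1a2 nor Rarb was called. The calls held under every other setting tried and with each of the 14 libraries left out, where the mean of the remaining groups was used without the CAST or the 129CAS library. Without the CAST library the log2 fold change was -1.43 for Aldh1a2 (adjusted p = 0.0025) and 0.42 for Crabp2 (adjusted p = 0.018). In the same comparison Top2b was lower (log2 -0.66, SE 0.09, adjusted p = 5.7e-05). Of 9 tested limb-level motor neuron markers 1 was higher and 5 lower, with a median log2 fold change of -0.59, and of 10 motor neuron markers 3 were higher and 2 lower, with a median of 0.37. Motor neuron markers summed to 2207 CPM in CAST MN, 1390 CPM in 129CAS MN and 325 to 426 CPM in CAS129 MN, against 524 and 736 CPM in 129 MN and 621 to 1858 CPM in BL6 MN. Limb-level markers, led by Foxp1, Etv4 and Pou3f1, summed to 294 CPM in CAST MN, 284 CPM in 129CAS MN and 220 to 227 CPM in CAS129 MN. In 129 MN they summed to 270 and 329 CPM, and in BL6 MN to 254 to 352 CPM. In PSC they summed to 230 and 424 CPM in BL6 and to 34.1 CPM or less in CAST and CAS129. The BL6 MN libraries thus lay between the BL6 PSC libraries, so this limb-level sum is not specific to motor neurons. Mesenchyme and meninges markers summed to 15295 CPM in CAST MN, 17260 CPM in 129CAS MN and 44706 to 47975 CPM in CAS129 MN. The sums were 23693 and 15965 CPM in 129 MN and 25808 to 56646 CPM in BL6 MN. Within BL6 MN, library 3 was highest and library 5 lowest in both this sum and Aldh1a2. The part of these marker sets in the results was not tested, nor was that of aligning CAST reads to the reference shared by all genotypes. Because the genes and the grouping were picked from these values, the p-values are not independent evidence. Of the 25 tested retinoic acid target genes in the same comparison, 2 were higher and 8 lower, with a median of -0.13 against -0.08 over all genes.

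The wider pathway was read from lists of related genes. Of 17 tested genes for retinol handling and retinaldehyde, 9 were higher and 3 lower in MN than in PSC, with a median log2 fold change of 1.51 against -0.05 over all genes. Across all genes 74.6% passed, 36.1% higher and 38.5% lower, so the share that passed in this list is near the background. Those with the largest rises were Cyp1b1, a cytochrome P450 that can oxidise retinol (log2 7.49, SE 0.42, adjusted p = 2.0e-10), Aldh1a1, a second retinaldehyde dehydrogenase (7.13, SE 0.71, adjusted p = 8.8e-08), and Bco1, which cleaves carotene (adjusted p = 0.00023). Bco1 was at 0 counts in BL6 and CAS129 PSC, and in BL6 MN it was at least 9.47-fold above the floor of 3 counts over the BL6 PSC libraries. Adh5 and Rdh11, dehydrogenases or reductases, were lower (-1.94 and -0.33), as was Rdh12 (adjusted p = 0.0013), which was at 0 counts in CAS129 MN. Aldh1a1 stood at 13.0 CPM in CAST MN and 6.95 to 52.7 CPM in BL6 MN, so its CAST MN value lay within the BL6 range, unlike that of Aldh1a2.

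Of 13 tested partner receptors and cofactors, 3 were higher and 5 lower, with a median of -0.02, a smaller share than the 74.6% of all genes that passed. Fabp5, a fatty-acid binding protein that can also carry retinoic acid (log2 1.19), and the corepressor Nrip1 (1.17) were among those higher. The coactivators Ncoa3 (-2.20) and Ep300 (-0.77) and the corepressor subunit Tbl1xr1 (-1.03) were among those lower.

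Of 25 tested retinoic acid target genes, 17 were higher and 4 lower in MN, with a median log2 fold change of 4.81. Across all genes 36.1% were higher and 38.5% lower. With the groups of 7 target genes that were at 0 counts set at 3 counts and the 3 genotypes averaged, the median was 4.00, and for the 9 retinoic acid genes, with Cyp26a1 treated in this way, it was 1.41 in place of 0.96. Hoxa5, which marks position along the hindbrain and spinal cord, was higher by 6.01 (SE 0.41, adjusted p = 1.2e-09), and the nuclear receptor gene Nr2f1 by 6.78 (SE 0.32, adjusted p = 7.1e-11). Hoxb5, another gene of position, was higher too (adjusted p = 2.1e-08), at least 28.6-fold in CAS129 and at least 543-fold in CAST, whose PSC were at 0 counts. Olig2, a motor neuron progenitor factor, Stra8, known for its role in germ cells, and Cdx1, a regulator of Hox genes, were lower (adjusted p = 6.9e-05, 6.7e-06 and 0.00026), with Stra8 and Cdx1 at 0 counts in CAST MN and Olig2 in CAS129 MN. Olig2 stood at 33.9 and 58.2 CPM in BL6 PSC and at 0 counts in both CAS129 PSC libraries, so its fall was carried by BL6. Dhrs3, a retinaldehyde reductase and target, stood at 4.39 CPM in CAST MN, 7.23 CPM in 129CAS MN, 21.3 to 29.8 CPM in CAS129 MN and 7.91 to 42.5 CPM in BL6 MN.

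**Figure D4:**
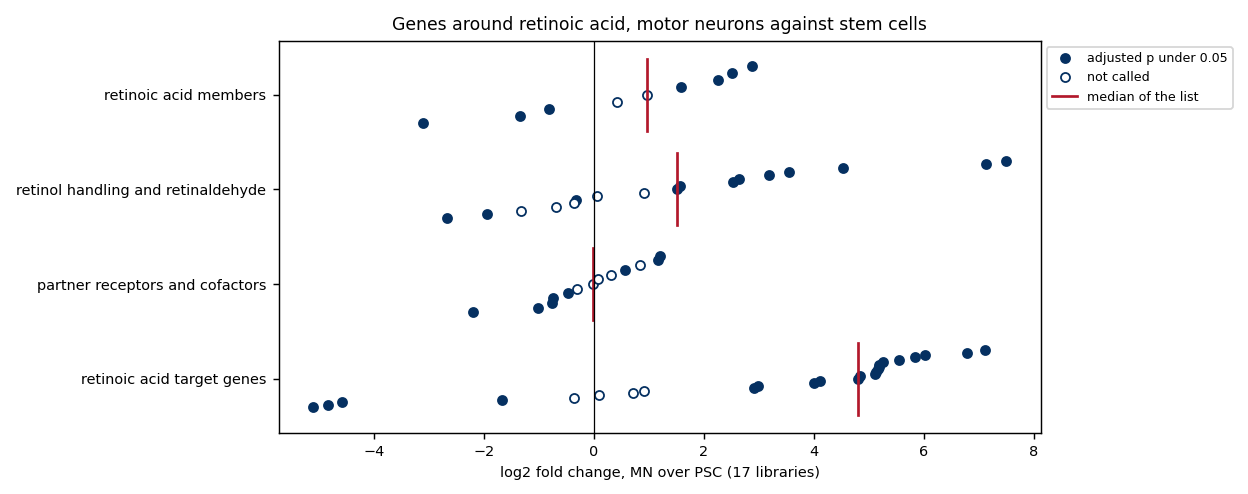
Log2 fold change, MN over PSC in 17 libraries, of the genes of each retinoic acid list. Each point is a gene, filled where the adjusted p was under 0.05, and the red line is the median of the list (0.96, 1.51, -0.02 and 4.81 from top to bottom). Target genes lie farthest to the right, with 17 of 25 higher and 4 lower.

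For each of the 9 genes the 3 most similar profiles over the 20 libraries were sought among 14120 genes, by the root mean square difference of centred log2(CPM + 1) values. The smallest of so many differences lies below that of the median gene by construction, and how small it is for other genes was not computed. The profile closest to Aldh1a2 was that of Myo1d, an unconventional myosin (difference 0.43, against 1.55 for the spread of Aldh1a2 itself and 1.63 for the median gene). Closest to Cyp26b1 was Nfib, a transcription factor (0.65, against 1.79 and 1.82), and closest to Rarb was Adrb1, an adrenergic receptor (0.49, against 1.30 and 1.44). Closest to Cyp26a1 was Sox17, an endoderm transcription factor on the marker list (0.64, against 1.19 and 1.42). Sox17 stood at 0.451 CPM in CAST MN, 1.47, 2.01 and 6.78 CPM in CAS129 MN, 20.9 and 17.3 CPM in 129 MN, and 1.10 to 8.24 CPM in BL6 MN. Among these MN groups it too was highest in the 129 libraries, and its values in 129CAS MN and in PSC are not reported here. For the other genes the closest were Podxl and Sox7 after Ctdspl for Stra6, Hnrnpa1 for Crabp1, Lrsam1 and Il6st for Crabp2, Grk6 for Rara and Erf for Rarg, with differences of 0.22 to 0.64.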

How the data were processed

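The authors deposited 1 table of raw read counts per Ensembl gene. Of its 28 columns, 20 were matched to samples by title and 8 were not used. The other 7 samples are not analysed here. Reads of the 20 libraries were aligned with STAR to GRCm38, per the submitters' processing notes, and the sources used here do not give the counting tool, annotation or strand setting. Gene names and positions were taken from GENCODE M21 (GRCm38), which held 27030 of 27071 identifiers.

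From the counts as deposited, edgeR 4.0.16 (R 4.3.3) was run with TMM scaling on genes with at least 1 CPM in at least 2 libraries of a fit, with a quasi-likelihood F-test, 2-sided, Benjamini-Hochberg adjusted over all genes tested, and a threshold of 0.05. MN against PSC used 17 libraries with genotype as a term, genotype-wise changes all 20 libraries in 8 group means, PSC comparisons 6 libraries and MN comparisons 14. Levels are CPM on TMM-scaled totals over the 20 libraries, and CPM per kb divides by exonic bases. The tests were also run on simulated counts with the same dispersion for every gene. That setting is simpler than these mixed libraries, so the run is not used as support here. A group at 0 counts was given a floor of 3 counts over the group, which covers counting error only. Alternatives were DESeq2 1.42.0, other scalings, other filters, each library left out, and the replicate number as a term.

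The 9 genes and all lists were chosen with earlier results of these data known, and list counts are not independent evidence. Named list genes are up to 3 higher and 3 lower called genes per comparison with the largest change, some targets by level, and the 3 most abundant markers. The genes Aldh1a1, Olig2, Sox17 and Top2b were added by level after their values were seen. Of the lists, Ncoa1, Dppa5a and Sox9 were not matched and are not analysed here, and some list genes are not reported here by name. In none of the 28 pairs of libraries within a group did counts agree within sampling noise (lowest chi-square 3.02 per degree of freedom). The pairs differed widely. In BL6 MN the value was 3.02 for libraries 5 and 6, 9.43 for 3 and 4, and 128 for 2 and 3. In CAS129 MN it was 3.49 for libraries 1 and 2. Some libraries of a group may thus not be independent, whereas the tests treat all as independent, which would make p-values too small.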

Additional observations from a re-analysis of the deposited data

Results flagged for a closer look

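The lowest Rara value among the 7 BL6 MN libraries, 29.7 CPM in library 2, stood apart from the others, its gap being 0.674 of the group's range (Dixon's critical value 0.568). Of the 9 genes tested in this group, the only group large enough, Rara alone had such a library. Chance gives such a library in about 1 in 20 groups for each gene, so 1 among 9 genes is not unusual.

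In a test of the difference itself, the MN-over-PSC change was more positive in CAS129 than in BL6 by 3.82 on the log2 scale for Rarg, 3.27 for Crabp1, 1.53 for Rara and 1.16 for Crabp2. Between CAST and BL6 it differed by -2.97 for Aldh1a2, with 1 CAST MN library.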

How the results depend on the processing

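Of 1032 recomputed log2 fold changes, 959 kept their direction and side of the threshold. The log2 fold changes of Stra6 and Cyp26a1 between MN and PSC, neither called, turned to -0.015 and -0.0089 with the hybrid left out. The count of genes called was 2 for CAST PSC against BL6 PSC with DESeq2, with no filter on low counts and with the replicate block, and 1 for CAS129 PSC against CAST PSC with no filter. With 1 library left out, the count ranged from 2 to 7 for CAS129 MN against CAS129 PSC, from 1 to 4 for the change in CAS129 against that in BL6, from 0 to 2 for the change in CAST against that in BL6, from 0 to 1 for CAST PSC against BL6 PSC, from 1 to 4 for CAS129 PSC against BL6 PSC, from 4 to 7 for CAST MN against BL6 MN and from 3 to 5 for CAS129 MN against 129 MN. Of 59 called results, 37 held in every such fit. The 37 include calls that rest on the single CAST or 129CAS MN library, which could not be left out of those comparisons. They also include the calls of the comparison chosen after the values were seen.

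Samples with the same number did not deviate together throughout (correlations -0.13 to 0.46 over all pairs). Some PSC libraries of the same number did, with 0.42 for CAST with CAS129 and 0.35 for BL6 with CAST, against 0.014 for BL6 with CAS129. No label says what libraries of the same number share, and the cause of these correlations was not tested. With the replicate block 6 members were called between MN and PSC, Rarg no longer (-0.83, adjusted p = 0.27). The block also ended the calls between MN and PSC of Rarg in CAST and of Stra6 in CAS129 (adjusted p = 0.10 for each), of Crabp2 in the change of CAS129 against BL6 (0.071), of Crabp1 and Crabp2 in 129 MN against BL6 MN (0.059 and 0.070) and of Crabp1 in 129CAS MN against CAS129 MN (0.061), and it added Rarg in CAST PSC against BL6 PSC (0.014).

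Depth limits the low genes: in CAS129 PSC a count of 0 allows up to 0.241 CPM. Scaling moved the split of called genes in the change of CAS129 against BL6, with 2166 of 2884 higher by TMM and 1258 of 2374 by RLE. The PSC arms hold 2 libraries each, and CAST MN and 129CAS MN hold 1, which is assumed to vary like the other groups. The alternatives with PSC library 2 only, without the hybrid or without a single CAST or 129CAS MN library were chosen after seeing the data.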

Other observations

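Genes of the related lists that the report leaves unnamed, chosen here after their values were seen, also differed between cell types. Rdh10, which makes the retinaldehyde that Aldh1a2 uses, stood at 56.7 CPM in CAST MN, 85.4 CPM in 129CAS MN, 64.4 to 66.8 CPM in CAS129 MN, 94.3 and 110 CPM in 129 MN, and 79.1 to 123 CPM in BL6 MN. In PSC it stood at 4.61 and 9.08 CPM in CAS129, 6.83 and 9.82 CPM in CAST, and 4.62 and 8.43 CPM in BL6. Every MN library was above every PSC library, and the CAST and CAS129 MN libraries were below the BL6 ones, whereas the 129CAS library lay within the BL6 range. Of the RXR partner receptors, Rxra and Rxrb were measured in every library, at 23.9 CPM or more, whereas Rxrg did not exceed 3.01 CPM.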
